A study of Mus musculus with 24 samples.

Results

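The genes described here are 10 mouse genes that carry, break down, store or export lipoprotein lipid and cholesterol: Apoe, Apoc1, Apoc2, Lpl, Lipa, Soat1, Abca1, Abcg1, Nr1h3 and Mylip. They were taken by symbol, and all 10 had a row in both deposited tables, out of 49022 genes that the tables share. Bulk sequencing of polyadenylated RNA gave 24 libraries of sorted lung macrophages in 8 groups of 3. Wild-type C57BL/6J mice received bleomycin, which damages lung tissue and serves as a model of scarring, at 3 µg per g body weight, or PBS, both into the trachea. Their CD11b+ SiglecF- cells, here called interstitial macrophages (IMs), were taken at day 7. The other mice were knock-ins in which EGFP reports the gene Spp1, which encodes osteopontin. After bleomycin these mice gave IMs with EGFP at days 14 and 7 (EGFP+), and IMs without it (EGFP-) at day 7. They also gave EGFP+ CD11b- SiglecF+ cells, here called alveolar macrophages (AMs), at days 30 and 14 after bleomycin and at day 7 after PBS. The labels do not say whether the knock-ins carried 1 or 2 copies of the reporter, or whether the 3 libraries of a group came from separate mice. The p-values therefore measure the spread between libraries, which may be technical.

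Macrophages take up lipoproteins, cell debris and, in the air spaces, surfactant, and they must pass on the cholesterol that these bring in. Lysosomal acid lipase frees cholesterol from its esters, and the cell then stores it again as ester or exports it through ABC transporters to acceptors such as apolipoprotein E. The nuclear receptor LXR senses oxidised forms of cholesterol and raises the export genes, while SREBP2 raises the genes of cholesterol synthesis and uptake when cholesterol is low. Mice without Abcg1 accumulate lipid in their alveolar macrophages.

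Library totals ran from 13450053 to 24580620 counts, and levels are in CPM, counts scaled to the library total. Siglecf, a surface lectin of alveolar macrophages, was at 108 to 428 CPM in the AM libraries and at 2.43 to 25.7 CPM in the IM libraries. Itgam, which encodes CD11b, was at 5.65 to 30.9 CPM in AMs and 151 to 406 CPM in IMs. Transcripts of other cells were present as well: a list of 10 neutrophil genes summed to 1594 to 1647 CPM in wild-type IMs after bleomycin and to 7447 to 8879 CPM in wild-type IMs after PBS. Replicate 1 of the day 14 IMs stood apart from its group, with 17919 CPM summed over 7 general macrophage genes, against 38000 to 50277 CPM in the other 2 libraries of the group. Each change below is a log2 fold change ± SE with an adjusted p from edgeR's quasi-likelihood test, Benjamini-Hochberg adjusted over all genes tested, and a gene is called at an adjusted p under 0.05. In sorted bulk cells, more cells of one kind and more RNA per cell cannot be told apart. The PBS AMs are of day 7 only and are in a different table from the bleomycin AMs. In AMs, treatment, day and table therefore cannot be told apart.

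Apoe (ENSMUSG00000002985, GRCm38 chr7:19696109-19699188, minus strand) encodes the lipid carrier apolipoprotein E, which macrophages secrete. It had the widest range of group means among the 9 members that were tested, from 163 ± 37.0 CPM in PBS AMs to 21353 ± 6760 CPM in day 14 EGFP+ IMs (SD, n = 3 each). Per kilobase of exon it ranked 2 among 49022 genes in day 14 IMs and 692 in PBS AMs. In EGFP+ AMs the 3 libraries had 2108, 2577 and 2518 CPM at day 30 after bleomycin, and 1403, 1547 and 1559 CPM at day 14, against 158, 129 and 202 CPM after PBS. No PBS library came near any bleomycin library, and Apoe rose 15.96-fold at day 30 (3.996 ± 0.151, adjusted p = 1.7e-10) and 10.5-fold at day 14 (3.39 ± 0.147, adjusted p = 6.43e-10). Day 30 was also above day 14, by 1.52-fold (0.60 ± 0.134, adjusted p = 0.00326).

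In wild-type IMs, Apoe had 10451, 10253 and 9219 CPM after bleomycin, against 3685, 3002 and 3106 CPM after PBS. The groups did not overlap, and the rise was 2.96-fold (1.57 ± 0.0794, adjusted p = 7.28e-09). Reporter IMs had 14291, 22006 and 27763 CPM at day 14, against 4388, 5703 and 4531 CPM in EGFP+ IMs at day 7. The lowest day 14 library, replicate 1, is the one that stood apart, and it was still above all of day 7. At day 7 after bleomycin, EGFP+ and EGFP- IMs both lay below the wild-type IMs, which differ from them in genotype and EGFP gate. EGFP+ IMs lay above EGFP- IMs, which had 2920, 2744 and 2549 CPM (0.78 ± 0.235, adjusted p = 0.0234). That call rests on few libraries: the adjusted p was 0.0984 without EGFP+ replicate 2, and 0.06, 0.0696 and 0.0816 without EGFP- replicate 1, 2 and 3. Over the 14 alternatives it ran from 1.38e-06 to 0.0984, with the change between 0.66 and 0.85 throughout. Apoe was 15.6-fold higher in day 14 IMs than in day 14 AMs (3.97 ± 0.311, adjusted p = 1.38e-05).

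**Figure D1:**
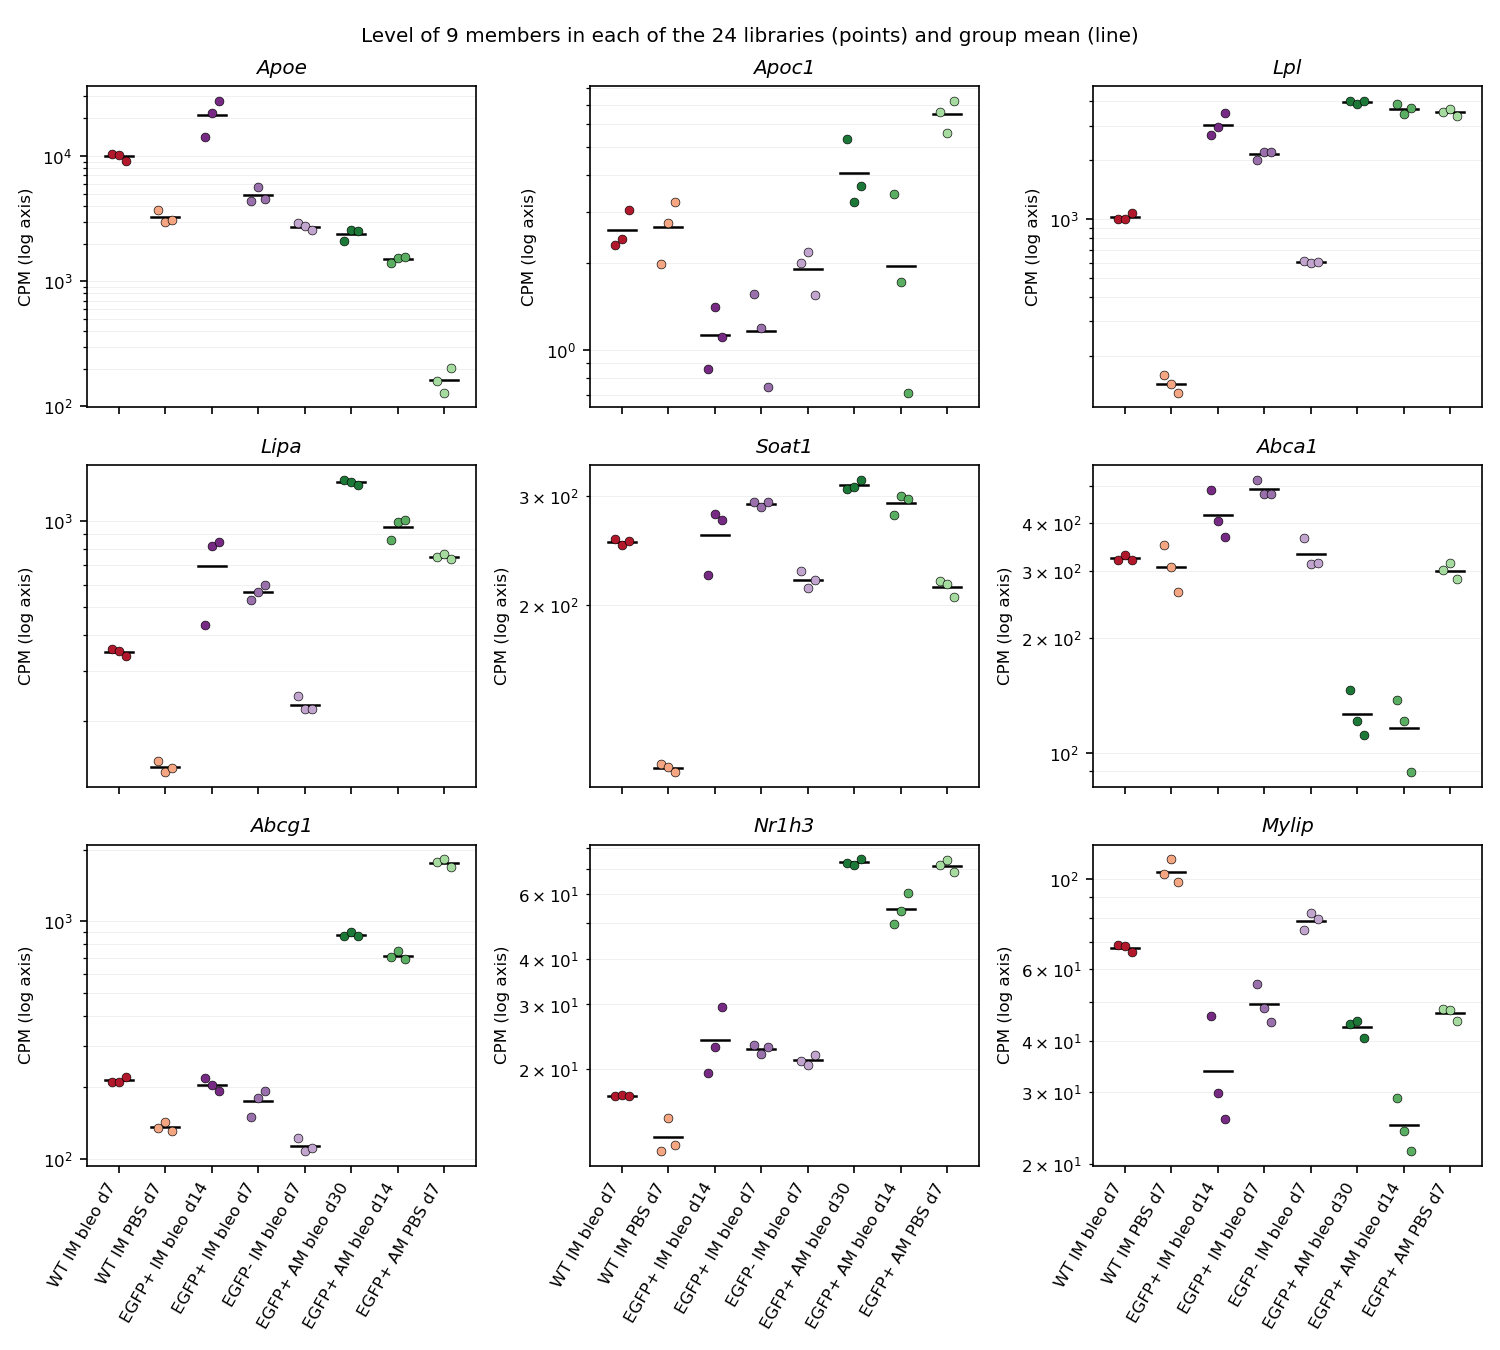
Level of 9 members in each library, in CPM on a log axis, by group. Points are libraries and lines are means of 3. Apoe was lowest in PBS AMs (129 to 202 CPM) and highest in day 14 EGFP+ IMs (14291 to 27763 CPM), while Abcg1 was highest in PBS AMs (1692 to 1828 CPM).

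The other 2 apolipoproteins were low, Apoc1 with 11 to 158 counts in a library and Apoc2 close to the detection limit. Apoc1 (ENSMUSG00000040564, chr7:19689481-19692660, minus strand), a small protein of plasma lipoproteins, ran from 0.712 to 7.24 CPM over the 24 libraries. It fell in AMs at day 14, with 3.44, 1.71 and 0.712 CPM against 6.63, 5.61 and 7.24 CPM after PBS (-1.55 ± 0.362, adjusted p = 0.00219). The size of that fall depends on single libraries: it was -2.26 without day 14 replicate 1 and -1.14 without day 14 replicate 3, and called in both. At day 30 it was called above day 14 (adjusted p = 0.0495), although the groups overlapped. That call was lost without day 14 replicate 2 (adjusted p = 0.142) or 3 (0.155), or without day 30 replicate 1 (0.184), 2 (0.053) or 3 (0.0802). It was lost as well with DESeq2 size factors (0.0501), with unchanged gene models (0.0549) and with only the 2 groups fitted (0.0847), and the adjusted p ran from 0.000787 to 0.184 over 14 alternatives. Apoc2 (ENSMUSG00000002992, chr7:19671579-19677941, minus strand), the activator of lipoprotein lipase, had at most 5 counts in any library and was not tested. A share of 79.5% of its exon bases belongs also to Gm44805 on the same strand, so its count cannot be read as its level. Of a further list of 12 apolipoproteins, 1 to 5 passed the low-count filter in a comparison.

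Lpl (ENSMUSG00000015568, chr8:68880491-68907448, plus strand) encodes lipoprotein lipase, which splits the triglyceride of lipoproteins at the cell surface. It was high in all AM groups, at 3372 to 4042 CPM, and spread widely among IMs. Wild-type IMs had 1005, 1004 and 1070 CPM after bleomycin, against 160, 144 and 130 CPM after PBS. This 6.88-fold rise (2.78 ± 0.0623, adjusted p = 2.77e-19) was the largest change of a member in the wild-type comparison. Reporter IMs at day 14 had 2684, 2952 and 3502 CPM, against 2006, 2219 and 2211 CPM in EGFP+ IMs at day 7 (0.74 ± 0.137, adjusted p = 0.000858). EGFP- IMs at day 7 had 615, 599.6 and 602 CPM, and EGFP+ cells of that day were 3.42-fold above them (1.78 ± 0.14, adjusted p = 2.4e-05). The 5 IM groups did not overlap one another in Lpl, and EGFP+ IMs at day 14 reached the range of PBS AMs. Between day 14 IMs and day 14 AMs no difference was called (-0.15 ± 0.194, 95% interval -0.53 to 0.23, adjusted p = 0.644).

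In AMs themselves Lpl moved little. It was called higher than after PBS at day 30 (0.29 ± 0.0743, adjusted p = 0.00369) and at day 14 (0.25 ± 0.0742, adjusted p = 0.00858). The day 14 libraries, at 3901, 3436 and 3708 CPM, overlapped those after PBS, at 3517, 3665 and 3372 CPM. The day 14 call was lost when libraries were scaled by total counts alone (0.065, adjusted p = 0.424; range 0.000421 to 0.424 over 14 alternatives). Lpl is anchored in vessels by Gpihbp1, matured by Lmf1 and Sel1l and inhibited by Angptl4. Of a list of 11 genes that control Lpl, 2 of 7 tested were called higher and 2 lower in AMs at day 30, and 2 higher and 3 lower at day 14, than after PBS. In wild-type IMs 4 of 6 were higher and 1 lower after bleomycin, and in EGFP+ against EGFP- IMs 2 of 8 were higher and 1 lower. In AMs Angptl4 was called lower at day 30 (-0.70 ± 0.0726) and day 14 (-0.83 ± 0.073) than after PBS. It was called higher in EGFP+ than in EGFP- IMs at day 7 (1.964 ± 0.174, adjusted p = 4.21e-05), the same comparison in which Lpl was called higher.

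Lipa (ENSMUSG00000024781, chr19:34492318-34527474, minus strand) encodes lysosomal acid lipase. In wild-type IMs it had 358, 350.3 and 338 CPM after bleomycin, against 145, 133 and 138 CPM after PBS, a 2.44-fold rise (1.29 ± 0.0525, adjusted p = 8.15e-16). In AMs it rose at day 30 to 1391, 1368 and 1333 CPM, and at day 14 to 855, 994 and 1011 CPM, against 751, 766 and 736 CPM after PBS. The 3 AM groups did not overlap, and the day 30 level was 1.36-fold above day 14 (0.45 ± 0.0763, adjusted p = 0.000232). EGFP+ IMs at day 7 had 529.8, 564 and 598 CPM, against 245, 220.2 and 221 CPM in EGFP- IMs (1.25 ± 0.242, adjusted p = 0.00356). At day 14, EGFP+ IMs had 432, 816 and 846 CPM, and the change from day 7 was not called (0.55 ± 0.239, adjusted p = 0.0761). Without replicate 1, the library that stood apart, it was called (0.82, adjusted p = 1.18e-06; range 1.18e-06 to 0.319 over 14 alternatives).

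Soat1 (ENSMUSG00000026600, chr1:156424525-156474331, minus strand) encodes the enzyme that turns cholesterol back into its storage ester. It rose in wild-type IMs, with 256, 250.05 and 254 CPM after bleomycin against 111, 109 and 108 CPM after PBS (1.17 ± 0.0503, adjusted p = 2.3e-15). It also rose in AMs, with 308, 311 and 318 CPM at day 30 and 279, 299 and 297 CPM at day 14, against 219, 216 and 206 CPM after PBS. The changes were 0.66 ± 0.0696 at day 30 and 0.64 ± 0.0697 at day 14 (adjusted p = 6.35e-07 and 9.26e-07). No difference was called between days 30 and 14 (0.03 ± 0.0694, 95% interval -0.11 to 0.16). EGFP+ IMs at day 7 were called above EGFP- IMs (0.36 ± 0.118, adjusted p = 0.0342), but the call was lost without any one of the 6 libraries, with adjusted p from 1.81e-05 to 0.109 over 14 alternatives.

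The exporters Abca1 and Abcg1 differed between the gates in different ways. Abcg1 was higher in every AM library than in any IM library. Abca1 was lower in every bleomycin AM library than in any IM library. In PBS AMs, however, Abca1 (300 ± 14.6 CPM) overlapped wild-type IMs after PBS (307 ± 43.0 CPM; SD). Abca1 (ENSMUSG00000015243, chr4:53030787-53159895, minus strand) hands cholesterol to lipid-poor apolipoproteins, and Abcg1 (ENSMUSG00000024030, chr17:31057698-31115777, plus strand) to formed lipoprotein particles. Per kilobase of exon, Abcg1 stood at 0.412 to 0.976 times Abca1 in the IM libraries and at 7.29 to 11.1 times Abca1 in the AM libraries. At day 14, within one table, IMs were 3.91-fold higher than AMs in Abca1 (1.97 ± 0.17, adjusted p = 2.59e-05) and 3.22-fold lower in Abcg1 (-1.69 ± 0.131, adjusted p = 1.33e-05). The annotated ends of Abcg1 differ between the tables, its model in the other table being chr17:31057675-31117988, and its values across tables carry that difference.

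**Figure D2:**
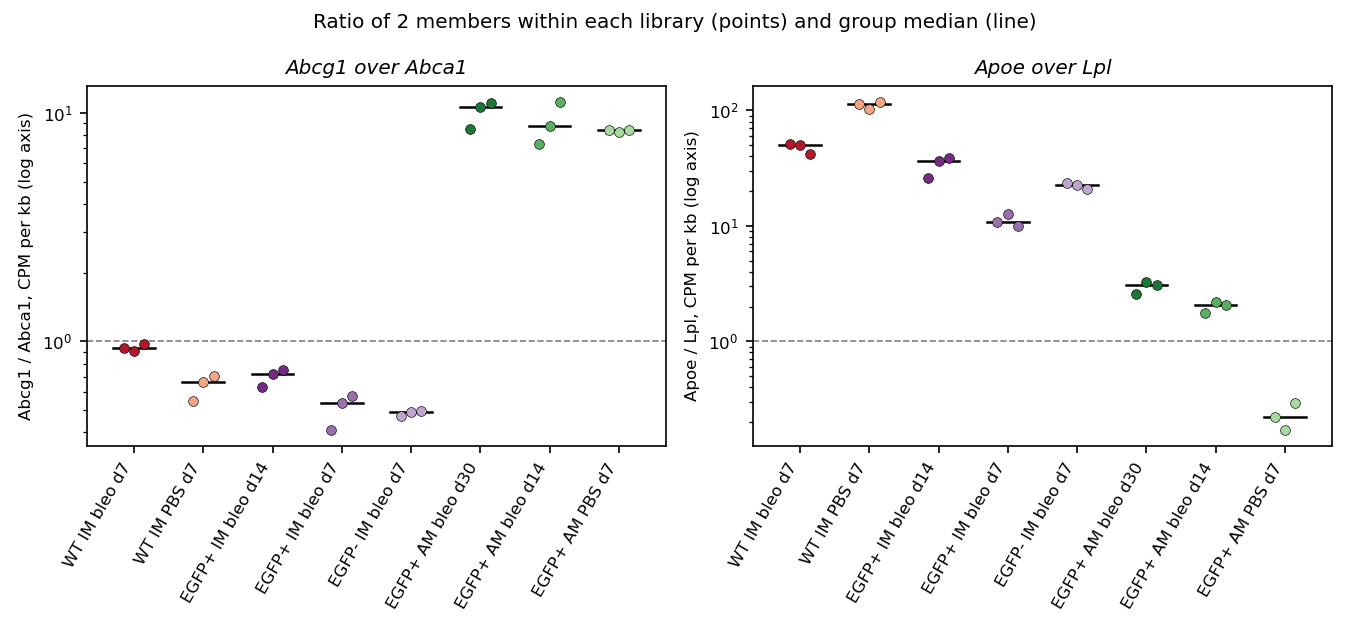
Ratio of 2 members within each library, each in CPM per kilobase of exon, on a log axis. Points are libraries and lines are medians of 3. Abcg1 over Abca1 lay below 1 in every IM library and between 7.29 and 11.1 in AMs, and Apoe over Lpl ran from 0.172 in PBS AMs to 117 in wild-type IMs after PBS.

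Both exporters fell in AMs after bleomycin, while Apoe rose. Abca1 had 146, 122 and 111 CPM at day 30 and 137, 121 and 89.4 CPM at day 14, against 302, 314 and 285 CPM after PBS. The bleomycin and PBS libraries did not overlap, and Abca1 was 2.20-fold lower at day 30 (-1.14 ± 0.128, adjusted p = 5.26e-06) and 2.28-fold lower at day 14 (-1.19 ± 0.129, adjusted p = 2.99e-06). Abcg1 had 870.0, 903 and 865 CPM at day 30 and 706, 749 and 698 CPM at day 14, against 1785, 1828 and 1692 CPM after PBS. It was 1.86-fold lower at day 30 (-0.89 ± 0.0678, adjusted p = 1.1e-08) and 2.17-fold lower at day 14 (-1.12 ± 0.0681, adjusted p = 6.41e-10). Abcg1 at day 30 was called above day 14 (0.22 ± 0.0675, adjusted p = 0.0153), a call lost without day 30 replicate 2 (adjusted p = 0.0726; range 0.00119 to 0.0726 over 13 alternatives).

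In IMs after bleomycin neither exporter was called lower. Abcg1 rose in wild-type IMs, with 211, 211 and 220.5 CPM after bleomycin against 135, 143 and 131 CPM after PBS (0.60 ± 0.0521, adjusted p = 5.59e-10). Abca1 was not called there, with 319, 331 and 321 CPM after bleomycin against 350.3, 307 and 264 CPM after PBS (0.03 ± 0.0795, 95% interval -0.13 to 0.19). At day 7, EGFP+ IMs were above EGFP- IMs in Abca1 (0.52 ± 0.1, adjusted p = 0.0023) and in Abcg1 (0.58 ± 0.096, adjusted p = 0.000956). At day 14 against day 7, Abca1 was not called (-0.01 ± 0.1, 95% interval -0.20 to 0.19). Abcg1 was called higher (0.46 ± 0.0954, adjusted p = 0.00193), but not when libraries were scaled by total counts alone (0.23, adjusted p = 0.096; range 1.34e-05 to 0.096 over 13 alternatives).

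The promoters of Apoe and Abca1 are shown because the genes changed in opposite directions in AMs, and because Abca1 is a textbook target of LXR. The sequences are from RefSeq on GRCm38.p6, 5′ to 3′ on the minus strand, the 250 bases before the annotated start: chr7:19699189-19699438 for Apoe and chr4:53159896-53160145 for Abca1. Capitals in Abca1 mark an E-box, CACGTG, that begins 147 bases before the start, and the stretch closest to the LXR element DR4, which begins 67 bases before it.
Apoe: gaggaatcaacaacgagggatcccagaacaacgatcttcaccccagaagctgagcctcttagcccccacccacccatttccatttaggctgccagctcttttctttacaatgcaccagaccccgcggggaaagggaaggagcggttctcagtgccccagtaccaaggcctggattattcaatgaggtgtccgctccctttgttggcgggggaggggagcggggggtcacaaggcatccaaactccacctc
Abca1: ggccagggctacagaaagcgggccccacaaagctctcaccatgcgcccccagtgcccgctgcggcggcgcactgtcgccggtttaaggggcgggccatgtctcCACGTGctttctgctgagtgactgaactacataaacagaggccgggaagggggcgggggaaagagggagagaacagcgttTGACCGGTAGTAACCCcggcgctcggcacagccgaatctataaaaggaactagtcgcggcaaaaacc

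Windows of 300 bases, 250 before and 50 after a start, were searched on both strands for 7 members that have one, in 10 windows. DR4 is a pair of AGGTCA half-sites with NNNN between them. No member window held one with at most 1 mismatch per half-site, as 1.75% of all 32851 windows did. The stretch in Abca1 departs from DR4 at 3 of the 12 half-site bases, and 21.9% of all windows hold one as close, in a search added after the sequence was seen. The E-box was found in Abca1 alone among these 7 members and in 7.15% of all windows. A match describes the letters only, and the motifs share no bases in these windows.

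Nr1h3 (ENSMUSG00000002108, chr2:91184061-91202834, minus strand) encodes LXR-alpha. Its AM libraries had 73.0, 71.7 and 74.6 CPM at day 30 and 49.5, 53.8 and 60.3 CPM at day 14, against 71.9, 74.1 and 69.0 CPM after PBS. Day 14 lay below both other AM groups; day 30 was called above it (0.35 ± 0.0876, adjusted p = 0.00486), while day 14 against PBS missed the threshold (-0.21 ± 0.0869, adjusted p = 0.0537). Nr1h3 was lower in day 14 IMs than in day 14 AMs, by 2.08-fold (-1.06 ± 0.193, adjusted p = 0.00318). In wild-type IMs it was 16.9, 17.0 and 16.9 CPM after bleomycin, against 11.9, 14.7 and 12.4 CPM after PBS, a small rise (0.33 ± 0.111, adjusted p = 0.0108).

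Mylip (ENSMUSG00000038175, chr13:45389742-45412019, plus strand) encodes a ubiquitin ligase and is itself an LXR target. It fell in wild-type IMs, to 68.8, 68.6 and 66.2 CPM after bleomycin against 103, 112 and 98.0 CPM after PBS (-0.66 ± 0.0614, adjusted p = 1.77e-09). It was lower in EGFP+ IMs at day 7, at 55.2, 48.3 and 44.5 CPM, than in EGFP- IMs, at 74.7, 82.3 and 79.5 CPM (-0.73 ± 0.152, adjusted p = 0.00392). In AMs it fell at day 14 to 29.1, 24.1 and 21.5 CPM, against 48.0, 47.6 and 44.8 CPM after PBS (-0.73 ± 0.103, adjusted p = 1.66e-05). Day 30 AMs had 44.1, 44.9 and 40.7 CPM, above day 14 (0.73 ± 0.104, adjusted p = 4.48e-05). No difference from PBS was called (95% interval -0.20 to 0.19). The end of its model differs by a few bases between the tables.

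The wild-type comparison asked what bleomycin changes in IMs at day 7. Of the 9 members tested, 6 were called higher (Apoe, Lpl, Lipa, Soat1, Abcg1 and Nr1h3) and Mylip was called lower. Of all 15496 genes tested, 35.6% were called higher and 34.5% lower, and the median change was 0.60 over the members and 0.00 over all genes. Of 15 genes that handle cholesterol esters and lysosomal export, 12 were called higher and 1 lower. They include Npc1 (1.66 ± 0.055), which moves cholesterol out of lysosomes, Nceh1 (1.70 ± 0.0686), a cholesterol ester hydrolase, and Npc2 (0.61 ± 0.053). The receptor list had 4 of 10 higher and 5 lower, with the receptor chaperone Lrpap1 at 0.997 ± 0.0572 and Sorl1 at -1.88 ± 0.0707. Of 16 LXR partners and targets tested, 4 were higher and 8 lower, with Rxra, the partner of LXR, at 1.28 ± 0.0599 and the desaturase Scd1 at -2.56 ± 0.0767. Of the SREBP2 list, 8 of 12 were called higher and 3 lower, with a median of 0.43; Hmgcs1, an enzyme of cholesterol synthesis, was at 0.66 ± 0.069 and Scap, the escort of SREBP2, at 0.61 ± 0.0661. Marker lists moved in both directions. Of 7 macrophage genes, 6 were called higher and 1 lower, and of 10 interstitial macrophage genes 7 higher and 2 lower. The interstitial list summed to 5035 to 5641 CPM after bleomycin and to 1896 to 2456 CPM after PBS. Of 11 alveolar macrophage genes tested, 4 were called higher and 6 lower. That list summed to 2585 to 2824 CPM after bleomycin and to 975 to 989 CPM after PBS. Nonclassical monocyte genes (7 of 7), fibroblast genes (8 of 8) and B-cell genes (8 of 8) were called lower. Beside these, all 10 neutrophil genes were called lower after bleomycin, and of 11 lung epithelial genes 9 were called lower and 2 higher. The epithelial list summed to 356 to 403 CPM after bleomycin and to 4843 to 7016 CPM after PBS. What part these marker lists had in the members' changes was not tested.

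EGFP+ against EGFP- IMs at day 7 asked which genes go with Spp1 reporter expression. Here 6 of 9 members were called higher (Apoe, Lpl, Lipa, Soat1, Abca1 and Abcg1) and Mylip lower, against 17.2% higher and 17.6% lower of 14967 genes. Nr1h3 was not called (0.05 ± 0.16, 95% interval -0.26 to 0.37). Of the ester and export list, 4 of 15 were higher and 4 lower, and of the SREBP2 list 1 of 12 was higher. Of the LXR list 4 of 16 were higher, led by Rxra (0.81 ± 0.123), Scd2 (0.58 ± 0.104) and the phospholipid enzyme Lpcat3 (0.51 ± 0.0907), and 6 were lower. All 10 neutrophil genes were called lower in EGFP+ cells, summing to 2013 to 2758 CPM in EGFP+ and 4592 to 6075 CPM in EGFP- libraries. Of 7 macrophage genes, 5 were higher in EGFP+ cells, summing to 10697 to 14717 CPM there and to 5038 to 5049 CPM in EGFP- libraries. Of 10 alveolar macrophage genes tested, 6 were called higher in EGFP+ cells and 0 lower, with a median change of 1.36. That list summed to 2463 to 3803 CPM in EGFP+ and to 2251 to 2446 CPM in EGFP- libraries. The part of these lists in the members' changes was not tested.

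**Figure D3:**
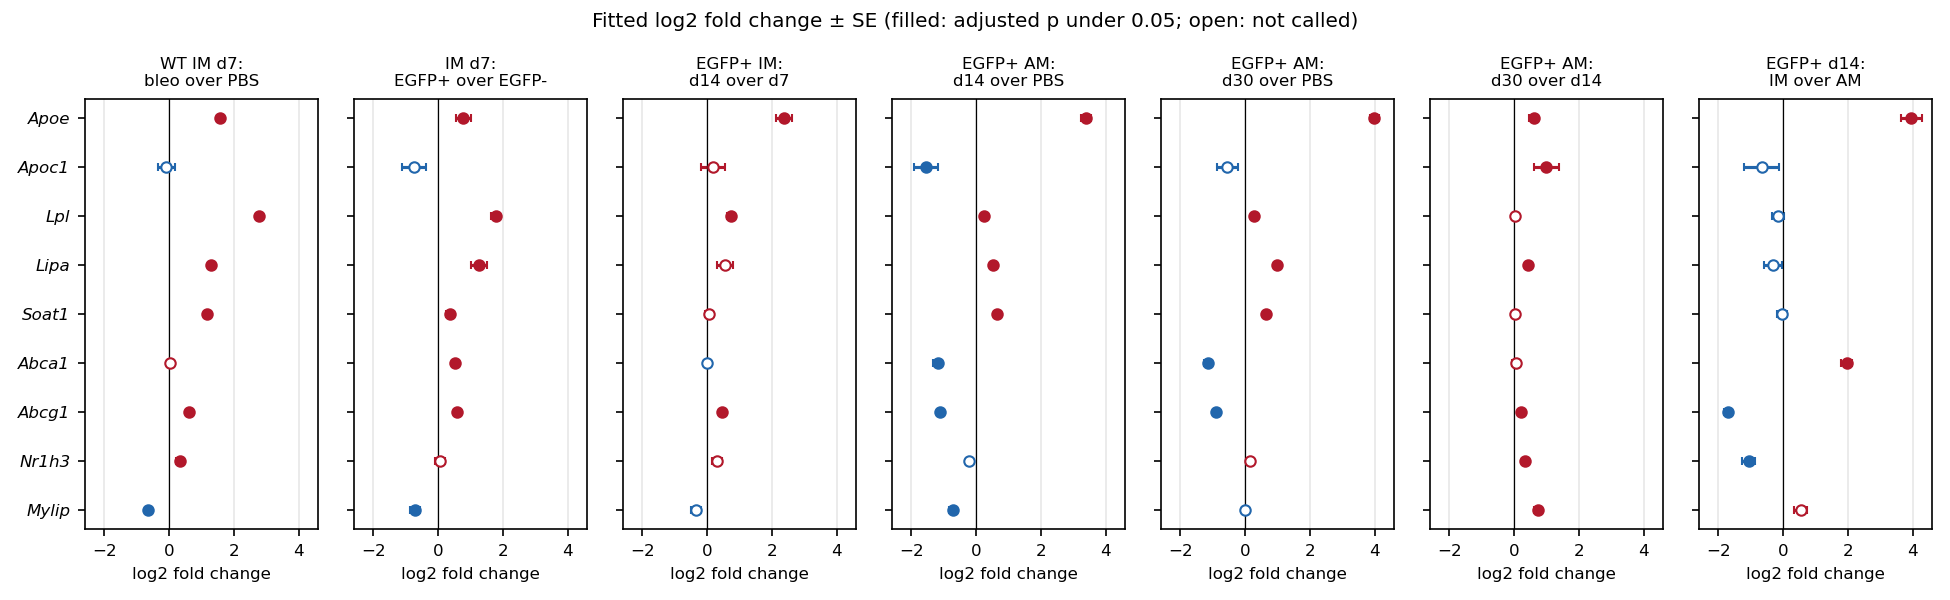
Fitted log2 fold change of 9 members in 7 comparisons, with SE as bars. Filled points were called at an adjusted p under 0.05 and open points were not. Apoe was above 0 in every panel, from 0.60 to 3.996, while Abca1 and Abcg1 lay below 0 in both AM comparisons with PBS.

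Day 14 against day 7 EGFP+ IMs asked how the reporter cells differ with time, with each day in its own table, so that table and day cannot be told apart. Of the 9 members, 3 were called higher (Apoe, Lpl and Abcg1) and none lower by edgeR, against 25.3% higher and 26.9% lower of 14967 genes. At an unadjusted p under 0.05, 1 member, Mylip, was lower, and DESeq2 called 0 lower. With scaling by total counts alone, the split over all genes was 2063 higher and 5367 lower, against 3781 and 4025 here, and the median of all genes was -0.22. Without day 14 replicate 1, 5 members were called higher and 1 lower, Nr1h3 and Lipa joining the higher ones and Mylip the lower. The SREBP2 list was affected most by that library: 4 of 12 genes were called higher with it and 12 without it. Of the LXR list, 6 of 16 were higher, among them Pltp, a phospholipid transfer protein (1.90 ± 0.149), and 4 were lower. All 7 macrophage genes and 5 of 10 interstitial macrophage genes were called higher at day 14, and 1 interstitial gene lower. The macrophage list summed to 17919 to 50277 CPM at day 14 and to 10697 to 14717 CPM at day 7, and the interstitial list to 7525 to 9163 CPM at day 14 and to 3284 to 3834 CPM at day 7. All 10 neutrophil genes and all 8 dendritic cell genes were called lower at day 14. The neutrophil list summed to 133 to 202 CPM at day 14 and to 2013 to 2758 CPM at day 7. The part of these lists was not tested.

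In AMs the comparisons with PBS asked what bleomycin changes by days 14 and 30. These span the tables, and the PBS AMs are of day 7, so treatment, day and table cannot be told apart. Both comparisons use the same PBS libraries. At day 30, 4 of 9 members were called higher (Apoe, Lpl, Lipa and Soat1) and 2 lower (Abca1 and Abcg1), against 24.8% higher and 23.1% lower of 14706 genes. At day 14, the same 4 were higher, and Abca1, Abcg1, Apoc1 and Mylip were lower, against 27.3% higher and 27.6% lower. With total counts alone the splits over all genes were 2800 higher and 4365 lower at day 30, against 3649 and 3401 here, and 2641 and 5570 at day 14, against 4008 and 4060. That scaling put the median of all genes at -0.20 at day 14, where it ended the call of Lpl and made Nr1h3 called lower (-0.39, adjusted p = 0.000847). Of 12 SREBP2 pathway genes tested, 11 were called higher and none lower by edgeR at each day. At an unadjusted p under 0.05, 1 was lower at each day: Scap, named here after its values were seen (-0.19 ± 0.0869 at day 30 and -0.19 ± 0.0872 at day 14). Among them were Sqle, squalene epoxidase, at 2.06 ± 0.102 at both days, and Fdft1 (1.55 ± 0.0976) and Lss (1.57 ± 0.104) at day 30. The median change of the 12 was 0.94 at day 30 and 1.10 at day 14, beside 0.02 and -0.01 over all genes. Of 17 LXR partners and targets tested, 4 were called higher and 5 lower at day 30, and 5 higher and 5 lower at day 14. The median change of that list was -0.02 at day 30 and -0.08 at day 14.

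**Figure D4:**
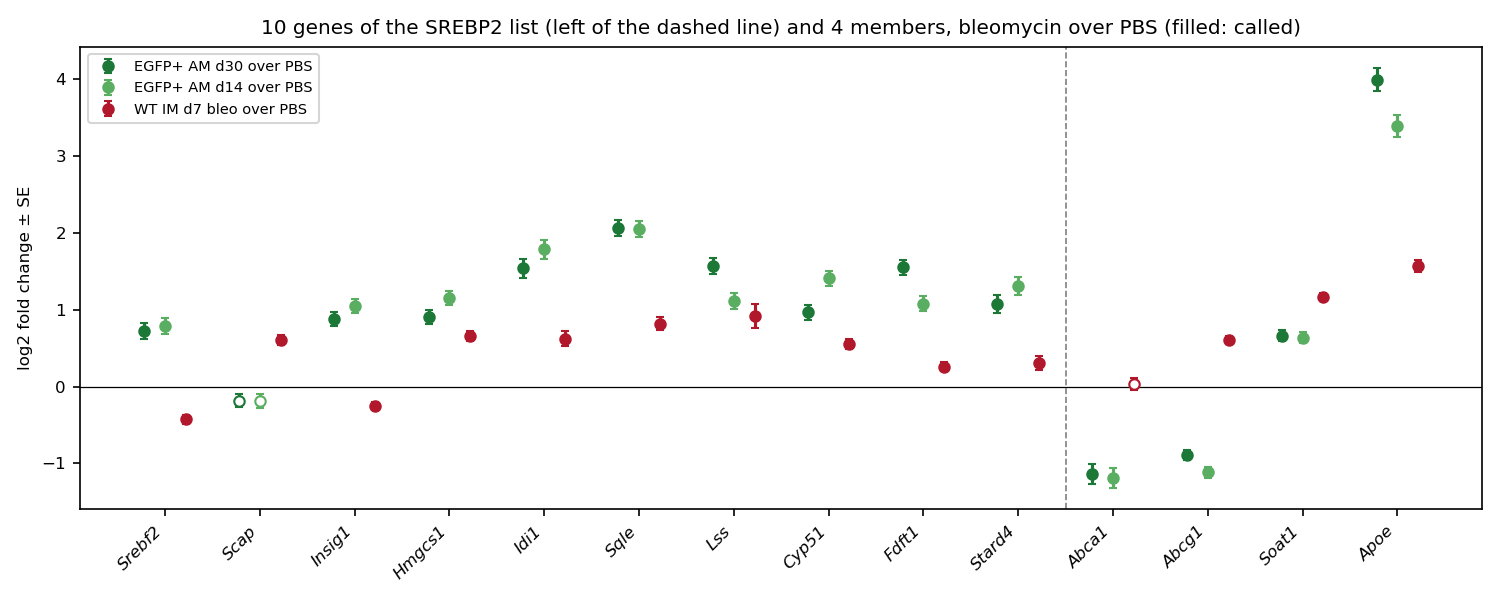
Log2 fold change, bleomycin over PBS, of 10 genes of the SREBP2 list and 4 members, in EGFP+ AMs and wild-type IMs, with SE as bars. Filled points were called. In AMs the genes of the list lay above 0 except Scap, which lay slightly below it and was not called. Abca1 and Abcg1 lay below 0 in AMs. In wild-type IMs most of the list lay above 0 as well, with Srebf2 and Insig1 below.

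Other groups of genes moved with these AM changes. Of 12 alveolar macrophage genes, 7 were called lower and 1 higher than after PBS at day 30, and 8 lower and 1 higher at day 14. A list of 10 genes that mark interstitial macrophages summed to 660.1 to 878 CPM at day 30 and to 1326 to 1667 CPM at day 14, against 71.0 to 121 CPM after PBS, with 8 of 10 called higher at day 30 and 6 at day 14. None of the 10 was at 0. The list's sum was lower at day 30 than at day 14. A list of fibroblast genes summed to 76.4 to 82.1 CPM at day 30, to 3.87 to 7.48 CPM at day 14 and to 8.69 to 12.7 CPM after PBS. Of 7 fibroblast genes tested, 7 were called higher than after PBS at day 30. At day 14, 0 were called higher and 2 lower. Neutrophil genes (7 of 9), epithelial genes (9 of 11) and B-cell genes (8 of 8) were called lower at day 14 than after PBS, with 1 neutrophil and 1 epithelial gene higher. At day 30, neutrophil genes (6 of 9) and T and NK cell genes (7 of 8) were called higher than after PBS. Epithelial genes (7 of 11) and B-cell genes (5 of 8) were lower at that day, with 2 epithelial genes higher. The part of these lists in the members' changes was not tested.

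Between days 30 and 14 after bleomycin, both in 1 table, 6 of 9 AM members were called higher at day 30 (Apoe, Apoc1, Lipa, Abcg1, Nr1h3 and Mylip) and 0 lower by edgeR, 0 by DESeq2 and 0 at an unadjusted p under 0.05, against 19.6% higher and 18.7% lower of 14706 genes. No member had a negative change in this comparison, and with total counts alone the split over all genes was 3409 higher and 2052 lower, against 2887 and 2753. The SREBP2 list had 2 of 12 higher and 3 lower, with Fdft1, squalene synthase, at 0.48 ± 0.0956 and Cyp51, a later enzyme of cholesterol synthesis, at -0.44 ± 0.0945. Scd1 rose (1.54 ± 0.0995), as did Ch25h (0.78 ± 0.111), which makes 25-hydroxycholesterol, an LXR ligand. Markers of other cells were higher at day 30: 8 of 9 neutrophil, 7 of 7 fibroblast and 8 of 8 B-cell genes, with 1 neutrophil gene lower. The neutrophil list summed to 524 to 611 CPM at day 30 and to 91.8 to 111 CPM at day 14. Their part was not tested.

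IMs against AMs at day 14, EGFP+ cells of 1 table, asked where the gates differ. Here Apoe and Abca1 were called higher in IMs and Abcg1 and Nr1h3 lower, 2 and 2 of 9, against 10.8% higher and 10.2% lower of 13460 genes. With total counts alone the split over all genes was 1110 higher and 1785 lower, against 1454 and 1378, and the median of all genes was -0.11. Same-numbered IM and AM libraries deviated together, and with the replicate number as a block Mylip was also called higher in IMs (0.53, adjusted p = 0.00924), against 0.54 ± 0.188 and 0.0666 without it. Lower in IMs as well were Angptl4 (-2.47 ± 0.139), the nuclear receptor Pparg (-2.20 ± 0.185), on which alveolar macrophages depend, and the HDL receptor Scarb1 (-1.19 ± 0.126). Of the SREBP2 list, 4 of 12 were lower in IMs and 1 higher.

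A direct test asked whether the bleomycin change differs between wild-type IMs at day 7 and EGFP+ AMs at day 14. Genotype, EGFP gate, day and table differ along with the cell gate and cannot be told apart. Of 9 members, 7 were called higher in this difference (IM change minus AM change) and 1 lower, against 21.6% higher and 17.5% lower of 16687 genes. With total counts alone the split over all genes was 5650 and 1878, against 3598 and 2916, and the median of all genes was 0.35, against 0.08. Lpl had the largest positive difference (2.50 ± 0.145, adjusted p = 2.56e-13) and Apoe the negative one (-1.86 ± 0.279, adjusted p = 1.84e-05). Abca1 (1.19 ± 0.165) and Abcg1 (1.69 ± 0.107) were higher too: each had a higher bleomycin change in IMs than in AMs. Of the SREBP2 list, 1 of 12 was called higher in this difference and 8 lower.

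Across the 24 libraries, members that rose and fell together were described by Pearson's r of log2(CPM + 1). These libraries share groups, tables and depth, and the values carry no test. Lpl and Lipa had r = 0.952, Abcg1 and Nr1h3 0.926, and Lpl and Mylip -0.865. Among 8432 named genes with a mean of at least 10 CPM, those most like Apoe were Scpep1 (0.985), Ms4a7 (0.984) and C1qc (0.978). Those most like Lpl were F7 (0.989), Plin3 (0.986) and Renbp (0.985), and those most like Lipa were Pld3 (0.978), Dhcr7 (0.975) and Cd200r4 (0.972). Abcg1 was closest to Cenpo (0.99), Sgsm3 (0.987) and Capn1 (0.985), and Abca1 to Erf (0.878) and Tubb2a (0.864). For Nr1h3 they were Cd9 (0.979), Pip4k2c (0.973) and Plet1 (0.968), for Soat1 Nek6 (0.964), Anxa4 (0.962) and Esyt1 (0.962), and for Mylip Vamp2 (0.973), Prr7 (0.961) and Cdkn2aip (0.957). For Apoc1 they were B3gntl1 (0.863), Patj (0.861) and Iffo1 (0.853), and for Apoc2, at a few counts, Cebpd (0.82), Adipor1 (0.791) and Nadk (0.783).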

How the data were processed

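RNA of sorted mouse lung macrophages was sequenced in paired ends, and the deposited values are unnormalized counts of reads for each gene, in 2 tables holding 15 and 9 of the libraries. Per the submitters' processing notes, the tools were FastQC 0.11.5, Trimmomatic 0.38, HISAT2 2.1.0, SAMtools and featureCounts 1.6.3 on GRCm38; the annotation release and strand setting are not given in the sources used here. The tables were joined by gene identifier (49022 genes, at least 99.486% of each library's counts), and 3 count columns that match no sample were not used. Groups came from the labels.

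Libraries were scaled by TMM, low genes were removed with filterByExpr, and groups were compared with edgeR 4.0.16 (R 4.3.3, limma 3.58.1), quasi-likelihood test, robust, with Benjamini-Hochberg adjustment over all genes tested, called at 0.05. Separate fits were made for wild-type IMs, for reporter IMs (9 libraries), for AMs (9) and for day 14 (6), and 1 fit of all 24 gave the difference of changes. Code was run on simulated counts with known changes; its pass limits were relaxed after a first run, and the fit of the difference of changes did not recover all of them. The members and lists were chosen with earlier results of these data known. All members are named; of each list, up to 3 called genes with the smallest p; and of genes like a member, the 3 with the highest r; a few of these genes are not reported here. Alternatives were DESeq2 1.42.0 (size factors, test), total counts, no filter, 41803 genes with unchanged models, the replicate block, other sets of libraries, and leaving out each library. Replicate numbers paired libraries only for day 14 IMs and AMs, whose same-numbered libraries deviated together (r = 0.254, 0.156 and 0.205).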

Additional observations from a re-analysis of the deposited data

Results flagged for a closer look

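The bleomycin change differed between wild-type IMs at day 7 and EGFP+ AMs at day 14 for 8 members, tested as the difference itself over all 24 libraries with edgeR (IM change minus AM change, log2). Of all 16687 genes tested, 21.6% were called higher and 17.5% lower in the same difference. Genotype, EGFP gate, day and table differ along with the cell gate and cannot be told apart. Apoe had the negative difference (-1.86, adjusted p = 1.84e-05): it rose in both, by a larger fold in AMs, where its PBS level was lower. Lpl had the largest positive one (2.50, adjusted p = 2.56e-13), followed by Abcg1 (1.69, adjusted p = 1.49e-12), Apoc1 (1.42, adjusted p = 0.0191) and Abca1 (1.19, adjusted p = 1.84e-06). Lipa (0.72, adjusted p = 0.0192), Nr1h3 (0.50, adjusted p = 0.0232) and Soat1 (0.50, adjusted p = 0.00152) differed by less. The calls of Apoc1 (1.25, adjusted p = 0.053) and Nr1h3 (0.44, adjusted p = 0.0663) were lost without wild-type PBS replicate 1. The difference of Apoc1 was 2.23 without AM day 14 replicate 1 and 1.12 without AM day 14 replicate 3.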

How the results depend on the processing

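Of 49 called member changes, 0 changed sign under any alternative run and 41 stayed called under all of them; the causes of the others were not tested. Uncalled changes took either sign when 1 library was left out. In wild-type IMs Apoc1 ran from -0.256 to 0.084 and Abca1 from -0.0548 to 0.137. In day 14 against day 7 IMs Apoc1 ran from -0.0653 to 0.466, Abca1 from -0.0888 to 0.0468 and Soat1 from -0.0434 to 0.187. In day 30 AMs against PBS Mylip ran from -0.0329 to 0.0432. In day 30 against day 14 AMs Lpl ran from -0.0322 to 0.0802, Abca1 from -0.0938 to 0.194 and Soat1 from -0.00741 to 0.0545. In IMs against AMs Apoc1 ran from -1.05 to 0.0375 and Soat1 from -0.128 to 0.0956. With total counts, Apoc1 was -0.0458 and Soat1 -0.168 in day 14 against day 7 IMs, and with the replicate block Mylip was 8.88e-05 in day 30 AMs against PBS.

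Leaving out one library gave 6 to 6 members higher and 1 to 1 lower in wild-type IMs, 4 to 5 and 1 to 1 in EGFP+ against EGFP- IMs, 3 to 5 and 0 to 1 in day 14 against day 7 IMs, 4 to 4 and 4 to 5 in day 14 AMs against PBS, 4 to 4 and 2 to 2 at day 30, 4 to 6 and 0 to 0 in day 30 against day 14, 2 to 3 and 2 to 2 in IMs against AMs, and 5 to 7 and 1 to 1 in the difference. With unchanged gene models, which leave out Abcg1 and Mylip, members lower were 0 in wild-type IMs, 0 in EGFP+ IMs, 2 and 1 in day 14 and day 30 AMs and 1 in IMs against AMs, and members higher were 3 in day 30 against day 14 AMs, where Apoc1 lost its call too (adjusted p = 0.0549). With no filter, 2 were lower in wild-type IMs and 1 in day 14 IMs, where total counts also gave 1, and all 24 libraries in one fit gave 5 higher and 1 lower. The replicate block, where numbers did not pair libraries, changed no call of a member.

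Over all genes, EGFP+ against EGFP- calls were 4064 higher with only the 2 groups fitted and 1670 higher and 1610 lower without EGFP+ replicate 2, against 2571 and 2635. IMs against AMs gave 2937 and 2969 with all 24 libraries in one fit, and 896, 868 and 901 lower without IM replicate 2 and AM replicates 2 and 3, against 1454 and 1378. The difference gave 1874 lower with unchanged models, against 2916. Depth limits Apoc1 and Apoc2, which had few counts.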
